A study of Mus musculus with 9 samples.

Results

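Stefins and cystatins are small proteins that plug the active site of cysteine proteases of the papain family, the cathepsins. The 7 genes described here are the mouse A-type stefins Stfa1, Stfa2, Stfa3 and Stfa2l1, the B-type stefin Cstb, and the cystatins Cst3 (cystatin C) and Cst7 (cystatin F). They were chosen by gene family with measured values of these same arrays already known, among them that Stfa2l1 had the 6th largest rise of 18193 genes on OP9-DL1 against OP9-GFP. Their own differences between groups are therefore given as a description, with no test. Of the 7 genes, 6 had a probe set, and they were read by 7 of the 45101 probe sets on the array. Cstb had 2 of these, and the probe set of Stfa1 was shared with its paralog Cstdc5. Stfa2 is not analysed here.

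The cells came from bone marrow of wild-type C57/Bl6 mice, sorted as LSK cells (negative for lineage markers, positive for Sca-1 and c-Kit), a population that holds the blood stem cells and early progenitors. They were cultured for 3 days on a layer of OP9, stromal cells derived from mouse bone marrow, and the floating cells were then harvested. The feeder carried GFP (OP9-GFP, 3 arrays), the Notch ligand DL1 (OP9-DL1, 3 arrays), or DL1 with 1 µM Compound E, an inhibitor of the γ-secretase that cuts Notch receptors free (OP9-DL1+CompoundE, 3 arrays). No group had Compound E on OP9-GFP, so an effect of the compound outside Notch signalling cannot be told apart from loss of the DL1 signal. The labels do not say whether arrays of a group came from separate mice or cultures, so every spread and p-value below covers only the difference between these arrays, which may be technical. Values are on a log2 scale, where a difference of 1 is a 2-fold change, with 3 arrays in each group.

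A-type stefins and Cstb lack a signal peptide and act in the cytosol, whereas Cst3 and Cst7 are made with one and enter the secretory route. Cst3 is secreted by almost every cell type. Cst7 is largely a product of blood cells, reaches lysosomes and is known to restrain cathepsin C, the enzyme that matures the serine proteases of granules. Humans have a single stefin A gene, and the mouse has a tandem cluster of copies whose transcripts are known from neutrophils and their precursors.

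The promoters of the A-type copies read by the first 3 probe sets described below are shown because these probe sets had the same order of levels over the groups. Stfa1 and Cstdc5 share 1 of these probe sets, so the order of either gene alone is not known. They come from RefSeq's table for GRCm38.p6, which matched 6 of the 7 genes, Cstb being the exception. The windows are Stfa2l1 at chr16:36156661-36156810 on the plus strand, Stfa1 at chr16:36276998-36277147 on the plus strand, Cstdc5 at chr16:36367571-36367720 on the minus strand and Stfa3 at chr16:36455393-36455542 on the minus strand. Each is the 150 bases just before the annotated transcription start, written 5′ to 3′, and capitals mark the runs of at least 12 bases that all 4 sequences share.
Stfa2l1: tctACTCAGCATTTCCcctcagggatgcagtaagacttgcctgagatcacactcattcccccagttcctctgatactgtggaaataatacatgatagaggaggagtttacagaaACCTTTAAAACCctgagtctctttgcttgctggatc
Stfa1: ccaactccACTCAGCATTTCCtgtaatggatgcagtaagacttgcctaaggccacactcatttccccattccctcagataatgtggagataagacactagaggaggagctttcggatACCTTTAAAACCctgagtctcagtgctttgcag
Cstdc5: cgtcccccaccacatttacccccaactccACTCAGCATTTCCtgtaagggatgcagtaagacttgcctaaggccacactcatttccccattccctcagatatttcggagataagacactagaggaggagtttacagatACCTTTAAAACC
Stfa3: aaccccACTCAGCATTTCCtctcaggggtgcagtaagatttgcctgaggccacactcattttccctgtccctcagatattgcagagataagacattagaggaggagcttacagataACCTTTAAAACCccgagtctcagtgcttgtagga
The longer shared run, ACTCAGCATTTCC, has 13 bases and begins 147 bases before the start of Stfa2l1. It occurs in 10 of all 32851 promoters in the table, 9 of which belong to genes of the stefin cluster. The shorter run, ACCTTTAAAACC, has 12 bases, begins 36 bases before that start and also occurs in 10 promoters, 9 of them in the cluster. The longer run is also in Csta1, whose probe set lay at background (group means 2.82, 2.88 and 3.05), so it does not mark only copies that differed. The shorter run is also in Cstdc4, whose probe set, shared with Csta2, had group means of only 3.42 to 3.87. A link between either run and the levels was not tested.

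Over the whole window of 300 bases in the table (250 before and 50 after the start), the promoters of Stfa1, Stfa2, Stfa3 and Stfa2l1 were between 80.0% and 91.7% identical over their 6 pairs. The closest pair was Stfa2 and Stfa2l1 at 91.7%. Against the promoters of Cst3 and Cst7 the same 4 reached 45.3% to 53.7% over 8 pairs, with gaps allowed in the alignment. Further genes of the cluster varied. Against the same 4, Csta2 reached 48.3% to 53.0% and Csta1 55.7% to 58.7%, whereas Csta3 reached 69.0% to 76.0% and Cstdc4 68.7% to 77.0%. The letters TGGGAA, the core bound by RBPJ, the DNA partner of Notch, were searched on both strands. They were in none of the windows of Stfa1, Stfa2, Stfa3 and Stfa2l1 and once each in those of Cst3 and Cst7. Of all promoters of this length 25.6% hold them. TTGCNNAA, a C/EBP core, was in the windows of Stfa1, Cstdc5 and Cst7 and in 10.8% of all promoters. AGATAA, which factors of the GATA family bind, was in those of Stfa1, Stfa3 and Cstdc5 and in 11.2% of all. GGAAGT, an ETS core that can overlap TGGGAA, was in those of Stfa2, Stfa2l1 and Cst7 and in 23.8% of all. A match is only a run of letters, and no measurement here bears on binding at any of these windows.

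The A-type stefins had the widest range of the family. Stfa2l1 read 5.34, 6.16 and 5.32 on the 3 OP9-GFP arrays, 10.36, 10.40 and 10.36 on OP9-DL1, and 7.05, 6.81 and 7.11 with Compound E. The 3 groups did not overlap, and the second OP9-GFP array stood 0.82 above the next one, which gives this group the widest spread of any member (SD 0.48, n = 3). Its group means were 5.61 ± 0.48, 10.37 ± 0.02 and 6.99 ± 0.16 (SD, n = 3). The level on OP9-DL1 was 4.76 ± 0.17 (SE) above OP9-GFP, or 27.2-fold. With Compound E it was 10.4-fold lower than on OP9-DL1, a difference of -3.39 ± 0.17 (SE) that ranked 31st among the falls. It was still 2.60-fold above OP9-GFP, a log2 difference that was 28.9% of that between OP9-DL1 and OP9-GFP.

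The probe set shared by Stfa1 and Cstdc5 followed the same order. It read 7.08, 7.25 and 7.19 on OP9-GFP, 11.43, 11.45 and 11.62 on OP9-DL1, and 9.12, 9.07 and 9.12 with Compound E. Again no group overlapped another. Its level on OP9-DL1 was 4.32 ± 0.07 (SE) above OP9-GFP, or 20.0-fold. The level with Compound E was 5.26-fold below OP9-DL1 and 3.81-fold above OP9-GFP. The log2 difference from OP9-GFP with Compound E was 44.6% of that on OP9-DL1.

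Stfa3, a further A-type inhibitor, read 4.78, 4.55 and 4.55 on OP9-GFP, 7.68, 7.81 and 8.01 on OP9-DL1, and 6.10, 5.96 and 5.99 with Compound E, in 3 groups that stood apart. The difference between OP9-DL1 and OP9-GFP was 3.20 ± 0.12 (SE), or 9.22-fold. With Compound E the level was 3.52-fold below OP9-DL1 and 2.62-fold above OP9-GFP. The latter log2 difference was 43.4% of that between OP9-DL1 and OP9-GFP. The order OP9-GFP, then Compound E, then OP9-DL1 was thus the same in these 3 probe sets. They may not be independent measures, since whether RNA of one copy binds the probes of another was not tested. In RNA from a whole culture, more cells that carry a transcript and more transcript per cell cannot be told apart.

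**Figure D1:**
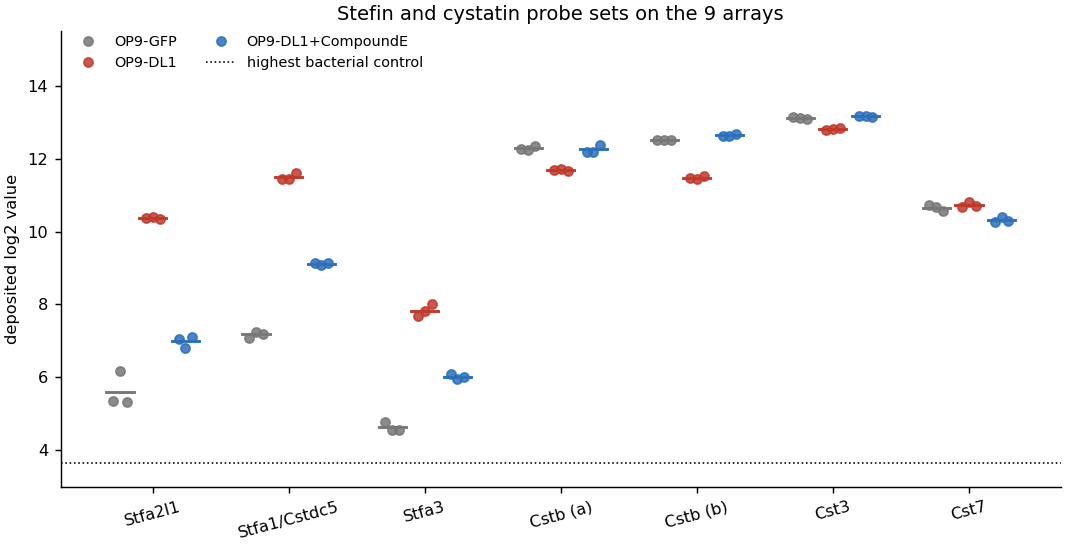
Deposited log2 value (vertical axis) of each of the 7 member probe sets (horizontal axis, Cstb (b) being the brighter of the 2 for Cstb) on the 9 arrays, with points for arrays coloured by group, short lines for group means and a dotted line at the highest bacterial control, 3.64. The A-type stefins form 3 separate steps with OP9-DL1 highest, while Cstb and Cst3 are lowest on OP9-DL1.

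Cstb, the cytosolic stefin found in nearly all cells and mutated in human progressive myoclonus epilepsy, moved the opposite way on both of its probe sets. The brighter one read 12.52, 12.51 and 12.50 on OP9-GFP, 11.48, 11.44 and 11.52 on OP9-DL1, and 12.63, 12.63 and 12.67 with Compound E. The level on OP9-DL1 was 2.04-fold below OP9-GFP (-1.03 ± 0.04, SE) and 2.24-fold below the level with Compound E. The other one read 12.27, 12.24 and 12.36 on OP9-GFP, 11.68, 11.73 and 11.66 on OP9-DL1, and 12.20, 12.20 and 12.38 with Compound E. OP9-DL1 lay below both other groups here too, by 1.51-fold (-0.60 ± 0.05, SE) and 1.48-fold. The size of the Cstb difference therefore depended on the probe set, and the direction did not. Between Compound E and OP9-GFP the brighter probe set was higher by 0.14 ± 0.04 (SE) without overlap, and on the other one these 2 groups overlapped.

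Cst3, the secreted cystatin C, differed little between groups. It read 13.15, 13.11 and 13.08 on OP9-GFP, 12.79, 12.82 and 12.84 on OP9-DL1, and 13.17, 13.17 and 13.16 with Compound E. All OP9-DL1 arrays lay below all others, by 1.23-fold against OP9-GFP (-0.30 ± 0.03, SE) and 1.28-fold against Compound E. Compound E lay above OP9-GFP by 0.05 ± 0.03 (SE), with no overlap but by a margin of 0.0064 between the nearest arrays.

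Cst7, cystatin F of blood cells, was the only member that was lowest with Compound E. It read 10.72, 10.69 and 10.57 on OP9-GFP, 10.68, 10.80 and 10.69 on OP9-DL1, and 10.26, 10.40 and 10.30 with Compound E. OP9-GFP and OP9-DL1 overlapped, 0.07 ± 0.06 (SE) apart. Compound E lay below OP9-DL1 by 1.32-fold (-0.40 ± 0.06, SE) and below OP9-GFP by 1.26-fold, without overlap in either case.

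Over the 7 probe sets, 3 were higher without overlap on OP9-DL1 than on OP9-GFP (the A-type stefins), 3 lower (both for Cstb, and Cst3) and 1 overlapped (Cst7). Among all probe sets 17.5% were higher and 19.8% lower without overlap in this comparison. The member median was 0.07, against -0.02 over all probe sets. For Compound E against OP9-DL1, 3 were higher and 4 lower, against 24.5% and 22.5% of all probe sets, with medians of -0.40 and 0.06. For Compound E against OP9-GFP, 5 were higher, 1 lower and 1 overlapped, against 15.9% and 15.8%, with medians of 0.14 and 0.03. The rule of choice used these differences, so nothing is read from the counts. Each group enters 2 of the 3 comparisons, so the comparisons share arrays.

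Centring each array on its median raised the median difference over all genes between Compound E and OP9-DL1 by 0.13. Under it the difference of Cst7 was -0.27, that of Cst3 was 0.48, and the dimmer Cstb probe set turned from -0.03 to 0.06 between Compound E and OP9-GFP. The shift was 0.09 for Compound E against OP9-GFP and -0.04 for OP9-DL1 against OP9-GFP. The differences of Cst3 and Cstb between Compound E and OP9-GFP are thus near the size of a scaling choice. So is that of Cst7 between OP9-DL1 and OP9-GFP. Other differences of Cst3, Cst7 and Cstb were larger than the shift, and those of the A-type stefins were far larger.

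**Figure D2:**
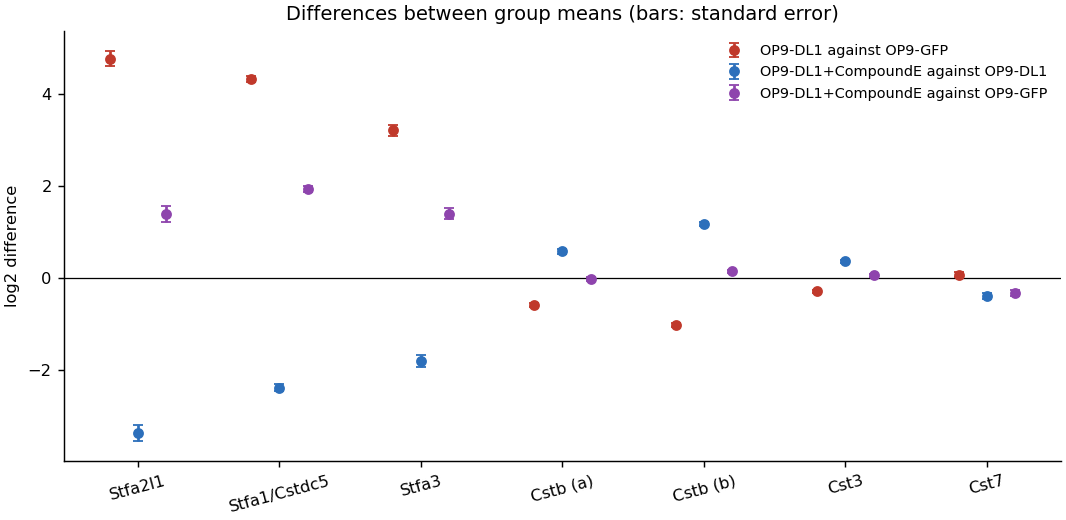
Log2 difference (vertical axis) of each of the 7 member probe sets (horizontal axis) in the 3 comparisons, coloured by comparison, with bars of 1 standard error from the fit. The A-type stefins lie at 3.20 to 4.76 on OP9-DL1 against OP9-GFP and stay above 0 with Compound E against OP9-GFP, while all differences of Cst3, Cst7 and Cstb lie between -1.03 and 1.16.

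In RefSeq order the stefin cluster on chromosome 16 is a run of 12 protein-coding genes between Ccdc58 and Casr. Besides Stfa3 and Stfa2l1, Csta1 was read by a probe set of its own, and its group means of 2.82, 2.88 and 3.05 lay at background. Background was taken as the highest value, 3.64, among 27 probe sets for bacterial transcripts, and all 7 member probe sets were above it on all 9 arrays. A probe set shared by Cstdc4 and Csta2 averaged 3.87 ± 0.07 in the OP9-DL1 group, 3.62 ± 0.05 in the Compound E group and 3.42 ± 0.32 in the OP9-GFP group (SD, n = 3), above background on 5 arrays. Levels of different probe sets are not comparable, so no order among the copies is read from these values.

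The 5 protein-coding genes on each side of the cluster were examined in the same fit, and this list was added after the data were seen. On OP9-DL1 against OP9-GFP, Slc15a2, a peptide transporter, rose by 0.82 and Kpna1, an importin, by 0.14, while Cd86, a costimulatory ligand of antigen-presenting cells, fell by 0.92. The other 7 did not pass an adjusted p of 0.05. The rise of Slc15a2 was 0.22 with an adjusted p of 0.108 when its probe sets were averaged, and the call of Kpna1 was likewise lost then, at 0.06 with an adjusted p of 0.508. With Compound E against OP9-DL1, 4 of the 10 rose and 3 fell, among them Cd86, which rose by 1.90. Over all genes 25.1% rose and 21.6% fell in that comparison, and 15.9% and 16.7% on OP9-DL1 against OP9-GFP. With Compound E against OP9-GFP, 3 of the 10 rose and 1 fell, against 12.1% and 10.6% of all genes. On OP9-DL1 against OP9-GFP the largest difference next to the cluster, 0.92 in size, was below the 3.20 to 4.76 of the A-type stefins. The stefins were chosen with such values known, so nothing is read from this contrast. With Compound E against OP9-DL1 the rise of Cd86, 1.90, was larger in size than the difference of Stfa3, -1.82.

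**Figure D3:**
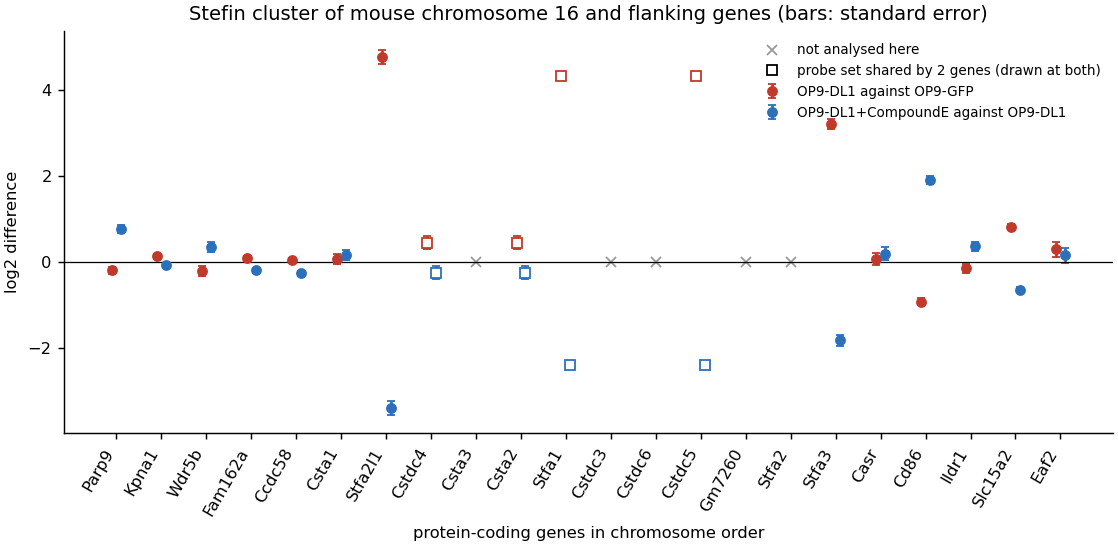
Log2 difference (vertical axis) with bars of 1 standard error for the protein-coding genes of the stefin cluster and 5 on each side, in RefSeq gene order (horizontal axis, not to scale in bases), for OP9-DL1 against OP9-GFP in red and Compound E against OP9-DL1 in blue, where open squares are probe sets shared by 2 genes and drawn at both, and crosses are genes not analysed here. In red Stfa2l1, Stfa3 and the probe set of Stfa1 and Cstdc5 lie at 3.20 to 4.76, Csta1 lies at 0.06, the probe set of Cstdc4 and Csta2 at 0.45, and the flanking genes between -0.92 and 0.82.

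The proteases these inhibitors act on were not used in choosing the members. Their list was nevertheless set with earlier results of these data known, so it is not independent of the data. Its genes were tested with limma over all 18193 genes. Of 11 cysteine cathepsins and legumain, 10 fell on OP9-DL1 against OP9-GFP and 1 rose, with a median of -0.61. In the background, 15.9% of genes rose and 16.7% fell in this comparison, and the median over all genes was -0.02. Lgmn, legumain, an asparaginyl endopeptidase of the lysosome that some secreted cystatins also block, read 7.73, 7.62 and 7.42 on OP9-GFP, 5.44, 5.32 and 5.51 on OP9-DL1, and 8.27, 8.16 and 8.27 with Compound E. It was 4.49-fold lower on OP9-DL1 than on OP9-GFP (-2.17 ± 0.10, SE, adjusted p = 6.73e-11). Ctsh, an aminopeptidase, fell by 1.70 (adjusted p = 2.40e-13), and Ctsb, the abundant lysosomal cathepsin B, fell by 0.93 (adjusted p = 5.84e-12).

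On the probe set with the highest mean, which stands for each gene, further falls on OP9-DL1 were smaller. Ctss, cathepsin S of antigen-presenting cells, fell by 0.88, and Ctsc, the enzyme that Cst7 restrains, by 0.85. Ctsk, the collagen-degrading cathepsin of osteoclasts, fell by 0.61 and Ctsl, the endopeptidase cathepsin L, by 0.60. Ctsz fell by 0.47 and Ctsf by 0.44, and Ctso fell by 0.26. The calls of Ctsf (adjusted p = 0.0306) and Ctso (adjusted p = 0.0316) were each lost under some alternatives, with adjusted p up to 0.137 and 0.140. Other probe sets of a gene often differed in size: Ctsl had another at -1.72, Ctsc had 2 at -1.21 and -1.58, and Ctsb had 4 between -1.89 and -1.04. Ctsl averaged over its probe sets fell by 1.16. On the probe set used, Ctsl held the same value on all 3 OP9-GFP arrays, 10.20, and such ties make the spread behind a p-value or SE too small. Ties were not limited to Ctsl. Among others, Ctsc was tied on OP9-GFP arrays 1 and 2, and the macrophage marker Msr1 on all 3 OP9-GFP arrays. The probe set of Stfa1 and Cstdc5 was tied on Compound E arrays 1 and 3.

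Ctsw, cathepsin W of natural killer and cytotoxic T cells, was the exception. It read 3.06, 3.31 and 3.14 on OP9-GFP, at background, 5.08, 4.48 and 5.13 on OP9-DL1, and 3.32, 3.37 and 3.04 with Compound E. It rose by 1.72 on OP9-DL1 (adjusted p = 2.90e-07) and fell by 1.65 with Compound E (adjusted p = 3.30e-07). Differences from a group at background are uncertain in size and may understate a change. This holds here and for the granule proteases and markers below whose lower group is at background.

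With Compound E against OP9-DL1, 9 of the 11 rose, Ctsw fell and Ctsf did not pass the test (0.00, adjusted p = 0.982), with a median of 0.98. Here 25.1% of all genes rose and 21.6% fell, and the median over all genes was 0.08. After centring, the share of rises among called genes went from 53.8% to 73.7%. Lgmn was 7.01-fold higher (2.81 ± 0.10, SE, adjusted p = 1.62e-12), and Ctsh rose by 1.89. Ctsl rose by 1.15, Ctsc by 1.04, Ctsb by 0.98 and Ctss by 0.97. The order of size depended on the probe set, since another for Ctsl rose by 2.87 and others for Ctsb by up to 2.34.

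Against OP9-GFP the levels with Compound E were nearer. Of the 11, 6 were higher, 1 was lower and 4 did not pass, in a background of 12.1% higher and 10.6% lower, with medians of 0.15 for the list and 0.05 for all genes. Lgmn was higher by 0.64 and Ctsl by 0.56, and these were the only calls of the list that held under every alternative. Centring moved the share of rises among called genes from 53.4% to 78.2%, and the number of cathepsins called higher ranged from 3 to 9 over 16 alternatives. Ctsb and Ctss, at 0.05 (adjusted p = 0.375) and 0.09 (adjusted p = 0.281), did not pass.

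**Figure D4:**
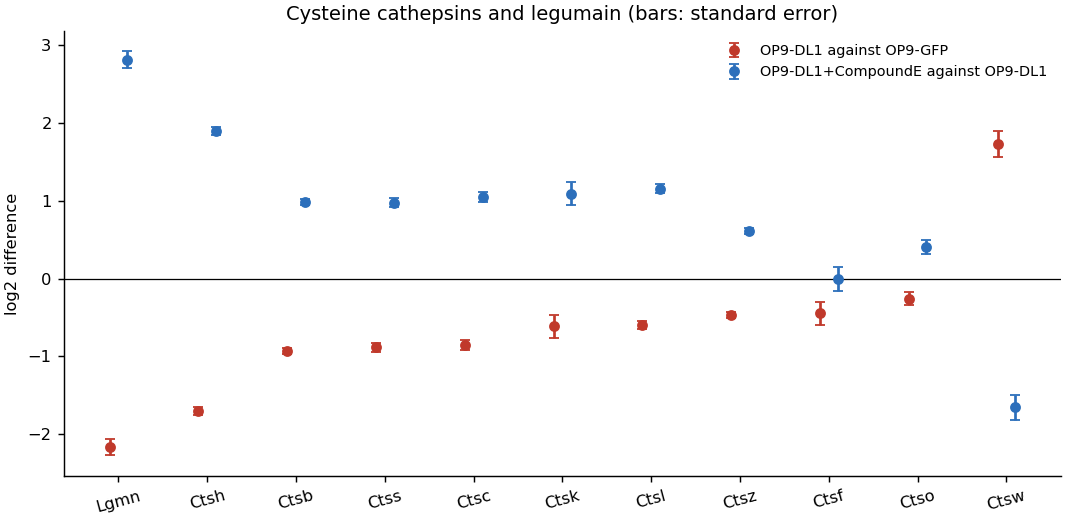
Log2 difference (vertical axis) of 11 cysteine proteases (horizontal axis) with bars of 1 standard error from the fit, for OP9-DL1 against OP9-GFP in red and Compound E against OP9-DL1 in blue. In red every protease lies below 0 except Ctsw at 1.72, and in blue Lgmn is highest at 2.81 and Ctsw is lowest at -1.65.

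Markers of cell types are given beside these shares of all genes: 15.9% rose and 16.7% fell on OP9-DL1 against OP9-GFP, and 25.1% rose and 21.6% fell with Compound E against OP9-DL1. Of 17 measured macrophage and monocyte markers, 15 fell and none rose on OP9-DL1 against OP9-GFP, and 13 rose and none fell with Compound E against OP9-DL1. Their mean level ran from 9.43 to 9.45 on OP9-GFP, from 7.32 to 7.36 on OP9-DL1 and from 9.22 to 9.27 with Compound E. Gpnmb, a glycoprotein of lysosome-rich macrophages, fell by 4.56 and Msr1, a scavenger receptor, by 3.50. C1qa was at background in all groups, and C1qb went from 9.36 on OP9-GFP to 7.01 on OP9-DL1 and 6.79 with Compound E (C1qa and C1qb were picked after their values were seen). Macrophages are rich in cathepsins and Cst3, and the part of these cells in the results for cathepsins, Cst3 and Cstb was not tested.

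Neutrophil markers did not move as a block. Of 17 measured, 8 rose and 7 fell on OP9-DL1 against OP9-GFP, and their mean level ran from 9.76 to 9.82 on OP9-GFP, from 9.96 to 10.08 on OP9-DL1 and from 10.23 to 10.29 with Compound E. Among the genes that rose were Ltf (lactoferrin) by 2.83, Camp (cathelicidin) by 2.45 and Lcn2 (lipocalin) by 1.74, and Ngp rose from a mean of 10.62 to 12.11. Their order over the groups was that of the A-type stefins: Ltf averaged 8.16 on OP9-GFP, 11.00 with DL1 and 9.60 after Compound E was added. Mmp8, the collagenase stored in neutrophil specific granules like Ltf, went the other way, from 10.30 to 5.78 and 11.16, and Csf3r, the G-CSF receptor, from 8.54 to 7.80 and 9.64. The part of neutrophil precursors in the stefin differences was not tested.

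Of 13 dendritic cell markers 5 rose and 5 fell on OP9-DL1 against OP9-GFP, where 15.9% of all genes rose and 16.7% fell. Itgax rose by 4.03, and Ccr7, at background on OP9-GFP with a mean of 3.12, averaged 7.52 on OP9-DL1, while Irf8 fell by 1.52 and Flt3 by 1.51. Of 11 mast cell and basophil markers 7 rose and 1 fell, with Gata2 up by 1.82, and with Compound E against OP9-DL1 none rose and 8 fell, against 25.1% and 21.6% of all genes. Of 7 eosinophil markers 2 rose and 3 fell. Of 12 natural killer and cytotoxic T cell markers 4 rose and 2 fell, and 5 were at background on all arrays. Such counts from short lists lie partly near the shares of all genes.

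Cxcl12, a chemokine of stromal cells, averaged 12.21 on OP9-GFP, and no array of the feeder alone was used here. Of 17 stromal markers 14 rose on OP9-DL1 against OP9-GFP and none fell, led by Ccn2 at 2.08, and 14 fell with Compound E. Their mean level ran from 8.63 to 8.70 on OP9-GFP, from 9.54 to 9.56 on OP9-DL1 and from 8.66 to 8.77 with Compound E, while Lum and Dcn stayed at background. The part of feeder RNA in the levels of Cst3 and Cstb, which stromal cells also make, was not tested. Cxcl12, Lum and Dcn were picked after their values were seen.

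The serine proteases that cathepsin C matures are the enzymes downstream of Cst7. Of 14 measured, 5 rose and 4 fell on OP9-DL1 against OP9-GFP, 3 rose and 6 fell with Compound E against OP9-DL1, and 2 rose and 6 fell against OP9-GFP. Over all genes 15.9% rose and 16.7% fell in the first of these comparisons, 25.1% and 21.6% in the second and 12.1% and 10.6% in the last, so the rises with Compound E are near that share. Gzmb, granzyme B, read 6.04, 5.96 and 5.57 on OP9-GFP, 11.26, 11.30 and 11.20 on OP9-DL1, and 4.36, 5.25 and 4.19 with Compound E. It rose by 5.40 (adjusted p = 4.00e-12) and then fell by 6.65 (adjusted p = 1.79e-13). Gzma, granzyme A, rose by 3.31, and the mast cell proteases Mcpt1 and Mcpt4 by 5.13 and 2.96. Mcpt8, of basophils, differed by 0.09 on OP9-DL1 (adjusted p = 0.228) and fell by 1.19 with Compound E. The neutrophil proteases Elane, Ctsg and Prtn3, picked after their values were seen, fell by 0.53, 0.60 and 0.52 on OP9-DL1. RNA of genes whose products share cathepsin C as the activating enzyme thus went both ways. In the same comparison Ctsc fell by 0.85 and the Cst7 groups overlapped. Activation of the proteases was not measured, so nothing about the action of Ctsc or Cst7 is read from these levels.

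Outside the 7 genes, 13 of 23 further genes of the cystatin superfamily had a value, 9 of them at background on all arrays. Only Kng1, the kininogen that carries cystatin domains, passed in any of the 3 comparisons. Over all genes 15.9% rose and 16.7% fell on OP9-DL1 against OP9-GFP, and 25.1% and 21.6% with Compound E against OP9-DL1. With Compound E against OP9-GFP the shares were 12.1% and 10.6%. Under centring up to 5 of the 13 were called higher with Compound E than on OP9-DL1. So were 8040 of all 18193 genes, and nothing about the family is read from that count. Kng1 read 4.03, 3.82 and 4.25 on OP9-GFP, 6.06, 6.08 and 5.91 on OP9-DL1, and 4.89, 5.14 and 5.01 with Compound E, in 3 groups that did not overlap. It rose by 1.98 on OP9-DL1 (adjusted p = 8.98e-09), fell by 1.00 with Compound E (adjusted p = 1.90e-05) and stayed 0.98 above OP9-GFP (adjusted p = 0.000107).

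Inhibitors of other protease classes changed in both directions. Of 16 measured, 10 rose and 3 fell on OP9-DL1 against OP9-GFP, and 4 rose and 9 fell with Compound E against OP9-DL1. The 3 falls in the first and the 4 rises in the second are near the shares of all genes, 16.7% and 25.1%, while 15.9% of all genes rose in the first and 21.6% fell in the second. Serpinb6b, an intracellular serpin, rose by 3.03 and then fell by 3.91, and Timp3, an inhibitor of matrix metalloproteases that also stands in the stromal list, rose by 1.19 and fell by 1.94. Serpinb8 fell by 3.06 and rose by 3.84, Wfdc17 fell by 2.84 and rose by 3.17, and Slpi, an inhibitor of neutrophil elastase, fell by 1.35 and rose by 1.22. With Compound E against OP9-GFP, 5 were higher and 6 lower, against 12.1% and 10.6% of all genes.

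The genes with profiles most like that of Stfa2l1 were found by the root mean square distance between log2 profiles over the 9 arrays, each centred on its own mean. They were Chodl at 0.437 (r = 0.981), Orm1, an acute-phase glycoprotein, at 0.495 (r = 0.991), the integrin Itgax at 0.552, the chemokine receptor Ccr7 at 0.554 and the transcription factor Spic at 0.574. Over the 3 groups in the same order as above, Chodl averaged 3.87, 8.22 and 5.69, and Orm1 averaged 5.54, 9.19 and 6.25. Like Stfa2l1 these 2 kept an intermediate level with Compound E, whereas Itgax, at 4.82, 8.86 and 5.05, returned closer to its level on OP9-GFP. For Cst7 the nearest were Nsun2 (0.0477), Msh6, Cenpw, Rbm4b and Aen (0.0549), and for Cst3 they were Cyb5r4 (0.0266), Arhgap15, Snx9, Lamtor3 and Pygo2 (0.036). The 9 arrays form 3 groups, so a correlation over them reflects group means and is given as a description only.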

How the data were processed

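Biotin-labelled RNA, amplified from 25 ng, was read on 9 single-colour Affymetrix arrays, 3 a group, grouped by the sample titles. The values deposited by the authors are on a log2 scale, with each probe set summarised once on every array. MAS5 and GCRMA 2.4.1 are named in the submitters' processing notes. Which of them made the values was not stated there. Folds from a dim group depend on how dim values were treated, so their size is uncertain. Array medians ran from 4.78 to 4.94. Correlations between arrays were 0.995 to 0.998 within groups and 0.972 to 0.993 between them. Precision is limited by the 3 arrays in each group.

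Gene names came from the annotation of the platform, with symbols updated by a RefSeq table of GRCm38.p6 used for names and gene order. Of 45101 probe sets, 34958 had 1 symbol, 932 several and 64 were controls. The probe set with the highest mean stood for each gene. Differences and adjusted p-values (Benjamini-Hochberg over 18193 genes, threshold 0.05, two-sided) came from limma 3.58.1 in R 4.3.3 (lmFit, eBayes with an intensity trend, all 9 arrays). Member probe sets were taken from the same fit over 45037 probe sets. Tested on simulated data for OP9-DL1 against OP9-GFP, the fit recovered 76.1% of genes changed 1.5-fold, 97.0% at 2-fold and 100% at 4-fold. It made 7 false calls among 189. The simulation used normal noise and raised far fewer genes than were called in the data, so these shares need not hold there.

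The members and lists were chosen with earlier results of these data known. All member probe sets and all cathepsins are named, then from each other list up to 4 genes with the smallest p among those called in each of the first 2 comparisons, and the 5 genes nearest in profile to Stfa2l1, Cst7 and Cst3. Alternatives were quantile normalization, centring arrays, log2(value + 32), the compared arrays alone, a replicate block, averaged probe sets, no trend, brighter genes, all probe sets, and leaving out each array.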

Additional observations from a re-analysis of the deposited data

How the results depend on the processing

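The A-type stefins kept their direction in all 3 comparisons under every alternative run, as did the calls of Lgmn and Ctsl. With log2(value + 32) the differences of Stfa3 became 2.20, -1.43 and 0.77, and those of Stfa2l1 became 4.06, -3.09 and 0.96. After centring, Stfa2l1 differed by -3.25 with Compound E against OP9-DL1. Leaving out 1 array at a time, the differences of Stfa2l1 ranged from 4.62 to 5.04, from -3.44 to -3.29 and from 1.23 to 1.66. The highest first value came without the second OP9-GFP array. Members lower without overlap with Compound E than on OP9-GFP ranged from 1 to 2, since 1 Cstb probe set separated without the third Compound E array. Genes called were 5934, 8500 and 4135 in the 3 comparisons, and counting all probe sets gave 9877, 14804 and 6794. Leaving out 1 array gave 5074 to 6268, 7372 to 8460 and 3059 to 4415 genes. Ctsf, with Compound E against OP9-GFP, turned from -0.45 to 0.0017 (adjusted p = 0.993) with probe sets averaged. Its other probe set, with a mean of 3.71 near background, went the opposite way there, at 0.45. Same-numbered arrays did not deviate together (correlations from -0.11 to 0.12). These correlations are taken over all genes and cannot show whether the numbers mark a pairing. The main fit used none, and a replicate block gave 5755, 8295 and 3972 genes. Of 3264 recomputed values of named genes, 3178 kept direction and call, 17 gained a call, 68 lost it and 1 reversed.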
